A study of Mus musculus with 121 samples.

Results

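Interneurons are the inhibitory neurons that act within a brain region, and they are sorted into classes by the proteins they make. The genes described here are 10 such markers: the calcium-binding proteins Pvalb and Calb2, the neuropeptides Sst, Npy, Vip and Cck, the transcription factor Lhx6, the nitric oxide synthase Nos1, the secreted glycoprotein Reln (reelin) and the receptor tyrosine kinase Kit. They were chosen by symbol, and each symbol matched 1 gene, so the set is 10 of the 24412 genes in the deposited count table. In cortex and striatum most Pvalb and Sst cells come from the medial ganglionic eminence and depend on Lhx6 during their development. Most Vip and Calb2 interneurons of the cortex come from the caudal ganglionic eminence. Reelin is released by Cajal-Retzius cells while the cortex is being layered and later mainly by interneurons. In GRCm38, Pvalb (Entrez 19293) lies on chromosome 15 at 78191112 to 78206400, Sst (20604) on chromosome 16 at 23889581 to 23890844, Npy (109648) on chromosome 6 at 49822710 to 49829505, Lhx6 (16874) on chromosome 2 at 36081953 to 36105408 and Nos1 (18125) on chromosome 5 at 117866839 to 117958840. Kit (16590) and Reln (19699) share chromosome 5 with Nos1, at 75574987 to 75656721 and 21884454 to 22344705, while Vip (22353) lies on chromosome 10 at 5639218 to 5647616, Cck (12424) on chromosome 9 at 121489824 to 121495694 and Calb2 (12308) on chromosome 8 at 110142538 to 110168206. No exon of these genes overlaps an exon of another gene. Outside interneurons several of these genes are used by other cells, for example Cck by cortical excitatory and some dopamine neurons, Calb2 by olfactory bulb and midbrain neurons, and Pvalb by projection neurons of the substantia nigra pars reticulata.

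The study measured RNA in male mice that carry a conditional allele of Gdnf (Gdnf cHyper, written cKU in genotypes), which raises expression from the native locus after Cre recombination. Mice without the allele (wt/wt, here WT), with 1 copy (wt/cKU, HET) and with 2 copies (cKU/cKU, HOM) were compared within each of 2 models on a mixed 129Ola/ICR/C57bl6 background, in prefrontal cortex (PFC), striatum (STR) and substantia nigra (SN) taken from 2-mm slices. In the Nestin-Cre model every group, WT included, carries Cre under the Nestin promoter, which is active throughout the neural lineage of the central nervous system from mid-gestation, and tissue was taken at 2 months of age by the sample labels (2 to 3 months for STR and SN in the study's text). In the AAV-Cre model every group, WT included, received a virus with Cre into the striatum on both sides at 3 to 5 months of age and was 5 to 7 months old when tissue was taken, 2 months after delivery, so that recombination is limited to cells reached from the striatal injection.

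The Nestin-Cre model has 21 mice and 56 libraries, with 8 WT, 6 HET and 4 HOM libraries in PFC and 6 WT, 7 HET and 6 HOM libraries in both STR and SN. The AAV-Cre model has 22 mice and 65 libraries, with 7 WT, 7 HET and 8 HOM libraries in PFC and SN and 7 of each genotype in STR. Of the Nestin-Cre mice 15 gave all 3 regions, 5 gave 2 and 1 gave 1; of the AAV-Cre mice 21 gave 3 regions and 1 gave 2. Mice are named M and the number in their labels. The labels of mouse M4575 conflict, its PFC library being WT and its STR and SN libraries HOM, and they were used as given. Total counts per library ran from 9869584 to 26750905, with a median of 17885830 over 121 libraries.

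Marker genes of each region were checked first, as summed cpm (counts scaled to a common library size, corrected by the trimmed mean of M values). Genes of cortical excitatory neurons (Slc17a7, Neurod6 and Tbr1) summed to between 1508 and 2163 cpm in the 40 PFC libraries, against medians of 38.8 in STR and 35.4 in SN. A short set of 5 striatal projection neuron genes summed to between 3246 and 7429 cpm in STR, with medians of 453 in PFC and 96.0 in SN. A short set of 6 midbrain dopamine neuron genes summed to between 1394 and 4896 cpm in SN and did not exceed 53.8 in the other regions. The ranges of the labelled region and of the other regions did not overlap for any of these short sets. Markers of another region were still present: PFC libraries held up to 1053 cpm of the 5 striatal genes, the highest STR library 486 cpm of the 3 cortical genes and the highest SN library 893 cpm of the 5 striatal genes. Sums given further on are over longer lists of the same cells, with 9 cortical excitatory, 10 striatal projection and 10 midbrain dopamine neuron genes, and are higher for that reason. Gad1, Gad2 and Slc32a1, which every GABAergic neuron uses, summed to medians of 861 cpm in PFC, 1602 in STR and 878 in SN.

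Gdnf itself (Entrez 14573, chromosome 15, 7810048 to 7837580 in GRCm38) was low outside the striatum. In Nestin-Cre STR it lay between 3.96 and 7.70 cpm in WT (median 6.26), between 4.03 and 9.39 in HET (median 5.57) and between 5.64 and 9.81 in HOM (median 6.84). In AAV-Cre STR it lay between 5.34 and 7.51 cpm in WT (median 6.78), between 6.36 and 9.58 in HET (median 7.52) and between 7.62 and 9.96 in HOM (median 8.61). The HOM and WT libraries of AAV-Cre STR did not overlap, whereas every other mutant group in STR overlapped its WT group. The log2 fold changes in STR were 0.07 (adjusted p = 0.8497; 3 of 7 libraries above the WT mean) and 0.28 (adjusted p = 0.784; 5 of 6 above) for Nestin-Cre HET and HOM, and 0.20 (adjusted p = 1; 5 of 7 above) and 0.40 ± 0.09 (SE; adjusted p = 0.504; 7 of 7 above) for AAV-Cre HET and HOM. Mean levels were 0.495, 0.430 and 0.254 cpm in Nestin-Cre PFC for WT, HET and HOM, 0.408, 0.622 and 0.645 in Nestin-Cre SN, 0.837, 1.06 and 0.883 in AAV-Cre PFC, and 0.322, 0.463 and 0.477 in AAV-Cre SN. Gdnf passed the filter on low counts (1 cpm in 3 libraries) in AAV-Cre PFC, where its log2 fold changes were 0.30 (adjusted p = 0.773) and 0.12 (adjusted p = 0.912), and not in the other PFC and SN sets. The recombined allele lacks most of the native 3′ end of the transcript, so exon counts check the genotype labels only in part.

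Within WT mice the 10 markers differed in level, given here as cpm per kb of exon so that genes of unlike length can be compared. In Nestin-Cre PFC the mean levels were, from the top, Cck at 300 (SD 28.3), Sst at 263 (SD 42.9) and Npy at 138 (SD 16.8), then Calb2 at 38.5 (SD 19.2), Pvalb at 37.2 (SD 7.91) and Vip at 36.7 (SD 4.66), then Reln at 12.0, Kit at 10.7, Nos1 at 8.27 and Lhx6 at 5.61 (n = 8). The neighbours Cck and Sst, and the 3 genes Calb2, Pvalb and Vip, lay within 1 SD of each other. In AAV-Cre PFC the order began with Sst at 290 (SD 56.0), Cck at 260 (SD 27.8) and Npy at 145 (SD 18.7) and ended with Kit at 9.36 and Lhx6 at 6.63 (n = 7), and Sst and Cck again lay within 1 SD of each other. In PFC, 3 of the 4 neuropeptide genes, Cck, Sst and Npy, therefore had the highest levels per kb and the transcription factor the lowest.

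In STR the order changed. Sst led at 422 cpm per kb (SD 40.0) in Nestin-Cre and 300 (SD 31.7) in AAV-Cre WT mice, followed by Npy at 144 (SD 16.8) and 99.2 (SD 19.6), the 2 peptides that striatal Nos1 interneurons make. Pvalb stood at 32.2 (SD 20.2) and 47.1 (SD 20.6), Reln at 16.2 and 19.1, Nos1 at 7.89 and 11.7, Kit at 9.40 and 10.7 and Lhx6 at 6.76 and 7.67. Cck reached 36.8 with an SD of 30.1 in Nestin-Cre mice, which overlaps Pvalb, and 10.1 (SD 4.01) in AAV-Cre mice, which overlaps Kit and Nos1. Vip was last at 1.59 and 0.707.

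In SN the calcium-binding protein genes led: Calb2 at 194 (SD 34.3) and 165 (SD 28.9) cpm per kb, and Pvalb at 134 (SD 48.6) and 62.1 (SD 17.3), in Nestin-Cre and AAV-Cre WT mice. Sst followed at 79.8 (SD 27.7) and 44.6 (SD 14.5) and Cck at 45.3 (SD 21.4) and 32.7 (SD 6.53), neighbours that lay within 1 SD of each other in the AAV-Cre mice only. Lhx6 was last at 0.462 and 0.563, below the mean of Vip at 2.46 and 1.51. Npy, a leading peptide in forebrain, averaged 8.59 (SD 8.29) and 8.78 (SD 6.29), with an SD close to the mean.

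**Figure D1:**
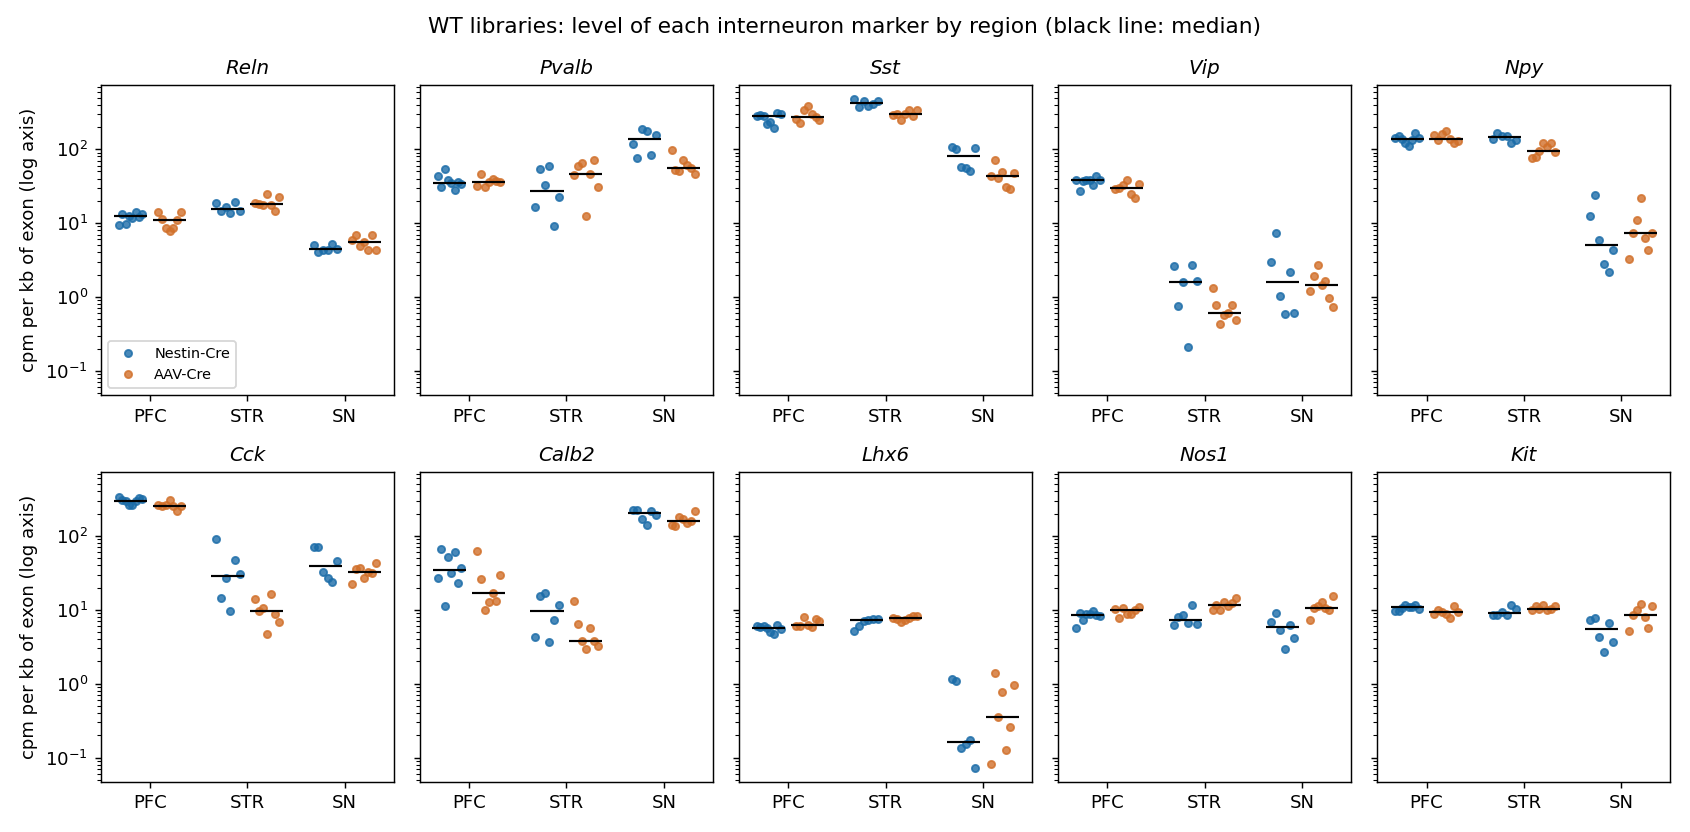
Level of each of the 10 markers in every WT library, in cpm per kb of exon on a log axis, by region; blue points are Nestin-Cre mice, orange points AAV-Cre mice, and black lines group medians. Vip and Cck are highest in PFC, Calb2 is highest in SN, and Lhx6 and Npy lie far lower in SN than in PFC or STR.

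Regions of WT mice were compared with 1 edgeR quasi-likelihood fit per model, a gene being called at an adjusted p under 0.1. STR differed from PFC in 5 of the 10 markers in Nestin-Cre mice (64.4% of 15403 genes tested were called) and in 6 in AAV-Cre mice (65.5% of 15442). SN differed from PFC in 10 (76.6% of all genes) and 8 (73% of all genes) of them, and from STR in 8 (73.5% of all genes) and 8 (75.6% of all genes). Regions differ in most genes, so these counts are near the share for all genes and say little about the markers as a set. In SN against PFC 8 of 10 markers were lower and 2 higher in Nestin-Cre mice (5963 lower and 5829 higher over all genes), and 6 were lower and 2 higher in AAV-Cre mice (5885 and 5390 over all genes), with medians of -1.55 and -1.86 log2 over the 10 genes and about -0.01 and -0.02 over all genes. In SN against STR 6 were lower and 2 higher, and 5 lower and 3 higher, with medians of -0.65 and -0.21. In STR against PFC 3 were lower and 2 higher, and 4 lower and 2 higher, with medians of -0.11 and 0.12. The comparisons within a model share their WT libraries. In bulk tissue fewer cells of a class and less RNA per cell cannot be told apart, and this holds for every comparison here.

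Among the medial ganglionic eminence markers, Lhx6, the transcription factor that Pvalb and Sst cells carry from birth, marked the forebrain. It lay between 16.9 and 22.1 cpm in PFC (median 20.6), between 18.4 and 26.8 in STR (median 25.8) and between 0.262 and 4.16 in SN (median 0.587) of Nestin-Cre WT mice, and between 20.8 and 28.3 (median 22.3), 24.4 and 29.8 (median 27.4), and 0.295 and 4.95 (median 1.27) in AAV-Cre WT mice. No SN library came near the lowest forebrain library. Against PFC, SN was lower by a log2 of -3.61 (adjusted p = 4.91e-11) and -3.54 (adjusted p = 4.15e-20), whereas STR and PFC did not pass the test (log2 0.28, adjusted p = 0.4663, and 0.21, adjusted p = 0.377).

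Sst and Npy, the peptides of the dendrite-targeting class, were also forebrain genes. Sst lay between 116 and 188 cpm in Nestin-Cre PFC (median 169), between 223 and 286 in STR (median 255) and between 30.0 and 64.8 in SN (median 47.8), and between 134 and 228 (median 165), 149 and 203 (median 181) and 17.2 and 43.3 (median 25.9) in AAV-Cre mice. In the younger mice no STR library overlapped PFC, and in the older mice the STR libraries lay inside the PFC range. The log2 differences of STR from PFC were 0.69 ± 0.20 (adjusted p = 0.00287) and 0.04 (adjusted p = 0.805). Npy lay between 63.2 and 94.3 cpm in Nestin-Cre PFC (median 78.3), 68.0 and 94.9 in STR (median 81.6) and 1.25 and 13.4 in SN (median 2.89). SN libraries stood far below the others, with log2 differences from PFC of -4.02 ± 0.40 (adjusted p = 8.45e-13) and, in AAV-Cre mice, -4.05 ± 0.24 (adjusted p = 8.40e-23). In AAV-Cre mice Npy was also lower in STR (42.4 to 69.5 cpm, median 53.2) than in PFC (69.3 to 98.7, median 78.5), by a log2 of -0.55 ± 0.20 (adjusted p = 0.0159).

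Pvalb, the calcium buffer of fast-spiking basket cells, was highest in SN. It lay between 29.0 and 55.5 cpm in Nestin-Cre PFC (median 36.9), between 9.55 and 61.2 in STR (median 28.7) and between 79.9 and 199 in SN (median 142). In AAV-Cre mice the ranges were 32.5 to 48.4 (median 37.7), 12.9 to 74.9 (median 48.4) and 48.6 to 101 (median 58.5). The SN range lay above both forebrain regions in the younger mice, while in the older mice it adjoined PFC and overlapped STR, and STR was the region with the widest spread relative to its level. SN exceeded PFC by a log2 of 1.84 ± 0.31 (adjusted p = 8.03e-07) and 0.71 ± 0.22 (adjusted p = 0.00341), and exceeded STR by 2.04 ± 0.34 (adjusted p = 8.49e-07) and, without passing the test, 0.37 (adjusted p = 0.124). With mouse as a replicate block, which pairs the regions of 1 animal, Pvalb passed as well for SN against STR in the older mice (0.43, adjusted p = 0.0920) and for STR against PFC in the younger mice (-0.63, adjusted p = 0.0677).

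Nos1 is the enzyme that makes nitric oxide, and Kit is the receptor for stem cell factor. Nos1 had medians of 83.8, 71.7 and 56.3 cpm in PFC, STR and SN of Nestin-Cre WT mice and 97.8, 111 and 104 in AAV-Cre WT mice. Its regional ranges overlapped in both models. It was lower in SN than in PFC (log2 -0.53 ± 0.20, adjusted p = 0.0193) and than in STR (-0.47 ± 0.22, adjusted p = 0.0501) in the younger mice, and higher in STR than in PFC in the older mice (0.29 ± 0.12, adjusted p = 0.0304). Kit had medians of 55.8, 46.3 and 28.1 cpm, and 48.3, 53.9 and 44.6 cpm, in the same order. In the younger mice its SN libraries lay below all PFC and STR libraries. There SN was lower than PFC by -0.99 ± 0.18 (adjusted p = 3.96e-06) and than STR by -0.82 ± 0.19 (adjusted p = 0.000178), and it was lower than STR in the older mice by -0.33 ± 0.17 (adjusted p = 0.0789), a call that was lost with DESeq2 (adjusted p = 0.102) and without the filter on low counts (adjusted p = 0.105).

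Among the genes that mark caudal ganglionic eminence cells in cortex, Vip, the peptide of disinhibitory interneurons, was highest in PFC. It lay between 41.9 and 66.2 cpm in Nestin-Cre PFC (median 57.9) and between 33.0 and 58.7 in AAV-Cre PFC (median 46.0), against 0.318 to 4.17 (median 2.46, from 5 to 90 counts) and 0.650 to 2.02 (median 0.916, from 11 to 29 counts) in STR, and 0.893 to 11.3 (median 2.46) and 1.12 to 4.08 (median 2.24) in SN. Every PFC library exceeded every STR and SN library by a wide margin. STR was lower than PFC by a log2 of -4.49 ± 0.47 (adjusted p = 7.92e-12) and -5.43 ± 0.26 (adjusted p = 7.06e-27). Calb2, calretinin, had its peak in SN, between 199 and 320 cpm (median 292) and between 196 and 313 (median 229). PFC held 16.4 to 94.4 (median 48.9) and 14.1 to 90.8 (median 23.9), and STR 5.22 to 23.9 (median 13.7) and 4.25 to 18.8 (median 5.49). PFC libraries varied widely among WT mice of each model, and the STR and PFC ranges overlapped. By the test, Calb2 was lower in STR than in PFC, by a log2 of -1.96 ± 0.37 (adjusted p = 1.17e-05) and -2.18 ± 0.38 (adjusted p = 1.64e-06). The log2 difference of SN from STR was 4.28 ± 0.42 (adjusted p = 5.44e-13) and 4.89 ± 0.40 (adjusted p = 4.83e-17).

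Cck, the peptide of another basket cell class and of many cortical excitatory neurons, lay between 221 and 290 cpm (median 257) and between 184 and 265 (median 220) in PFC of Nestin-Cre and AAV-Cre WT mice. In STR it lay between 8.21 and 78.4 (median 24.5) and between 4.08 and 14.1 (median 8.26), and in SN between 20.4 and 61.1 (median 33.8) and between 19.2 and 36.2 (median 28.2). PFC stood apart from the other regions in both models. The log2 difference of STR from PFC was -3.01 ± 0.45 (adjusted p = 1.40e-07) and -4.69 ± 0.23 (adjusted p = 6.61e-27). SN exceeded STR in the older mice by 1.67 ± 0.22 (adjusted p = 7.11e-10), and in the younger mice the difference of 0.28 did not pass the test (adjusted p = 0.583).

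Reln, the secreted ligand of the receptors Vldlr and Lrp8, was highest in STR. It lay between 109 and 164 cpm in PFC (median 145), 160 and 223 in STR (median 183) and 47.7 and 61.7 in SN (median 51.9) of Nestin-Cre WT mice, and between 92.2 and 166 (median 127), 169 and 288 (median 212) and 49.8 and 81.3 (median 65.2) of AAV-Cre WT mice. SN did not overlap either forebrain region, and STR and PFC touched in the younger mice and were separate in the older mice. STR exceeded PFC by a log2 of 0.45 ± 0.17 (adjusted p = 0.0200) and 0.82 ± 0.15 (adjusted p = 3.52e-06), and SN was lower than PFC by -1.38 ± 0.18 (adjusted p = 1.97e-09) and -0.995 ± 0.15 (adjusted p = 4.50e-08).

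Genotype was compared within each model and region, HET and HOM each against WT, in 12 comparisons. The HET and HOM comparisons of a set share the same WT libraries, so their values are given side by side and are not independent of each other. The edgeR quasi-likelihood test called 0 of the 10 markers in each of the 12 comparisons. Across all genes it called 0.25% of 14386 genes in Nestin-Cre PFC HOM (36 genes), 0.0137% of 14628 genes in AAV-Cre PFC HOM (2 genes) and 0% in each of the other 10. All 10 markers passed the filter on low counts in every comparison. At an unadjusted p under 0.05 there were 13 of 120 marker tests, or 10.8%, against 8.3% of 175698 tests over all genes. With other tools the counts were higher: the edgeR likelihood ratio test called 20 of the 120 and DESeq2 called 2, as given with the processing alternatives. No share over all genes is set beside the counts of these tools, so they say little about the markers as a set.

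The marker with the widest difference was Pvalb in Nestin-Cre STR. The 6 WT libraries held 17.0 (M4326), 56.4 (M4394), 33.7 (M4529), 61.2 (M4545), 9.55 (M4609) and 23.7 cpm (M4612). The 7 HET libraries held 3.95 (M4564), 5.88 (M4566), 7.49 (M4577), 2.92 (M4578), 24.3 (M4579), 9.40 (M4606) and 8.86 cpm (M4628), and the 6 HOM libraries lay between 6.33 and 21.6 (median 14.9). M4579 is the highest of the HET mice and the 1 HET library that overlaps WT, where M4609 is lowest; the HOM range overlaps WT. The log2 fold change was -1.90 ± 0.45 in HET (adjusted p = 0.175; 7 of 7 libraries below the WT mean; 8.49e-28 to 0.2003 over 6 alternatives) and -1.22 ± 0.47 in HOM (adjusted p = 0.784; 6 of 6 below; 7.43e-10 to 0.961 over the alternatives). Neither passed the test.

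The Nestin-Cre STR fit was repeated without each of its 19 mice in turn, a choice made after the values were seen. The log2 fold change of Pvalb in HET stayed between -2.37 and -1.64, and the adjusted p ran from 0.0202 to 0.357. Pvalb was called without HET mouse M4579 (-2.37 ± 0.42, adjusted p = 0.0202) and without WT mouse M4612 (-1.98 ± 0.48, adjusted p = 0.0962), and in none of the other 17 refits. In HOM the log2 fold change stayed between -1.43 and -0.97 and was never called. Pvalb was thus below the WT mean in every HET mouse. Its call depended on single libraries and on the tool: of the 6 alternatives, the likelihood ratio test, DESeq2 and the fit of the 3 regions together, which takes no account of shared mice, called it, and the other 3 did not. The likelihood ratio test as run used no spread of the gene's own, and DESeq2 called too readily in a check on counts drawn with known fold changes.

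Other tissue in the same libraries was measured through marker lists. The 10 striatal projection neuron genes were all below WT in Nestin-Cre STR HET (median log2 -0.39), with summed levels of 8845 to 12482 cpm in WT, 5298 to 10958 in HET and 7298 to 11136 in HOM, Ppp1r1b being the most abundant. M4579, the HET mouse with the highest Pvalb, also had the highest sum in its group. Of 9 cortical excitatory neuron genes 8 were below WT (median -1.08), with sums of 45.1 to 366 cpm in WT and 48.7 to 179 in HET, Slc17a7 being the most abundant, and the 6 of 7 choroid plexus genes that passed the filter were above WT (median 2.67), with sums of 55.5 to 307 cpm in WT and 40.6 to 19058 in HET, the highest in M4566, mostly Ttr. No gene of these lists was at 0 in every library of a group. By the correlations described further on, Pvalb in STR gave r of 0.27, -0.005 and 0.04 with these 3 lists in this order. It gave 0.48 with the oligodendrocyte list and -0.48 with the endothelial cell and pericyte list. With the forebrain GABA lineage transcription factors it gave -0.55. The part of these lists in the values of Pvalb was not tested.

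In the other Nestin-Cre regions Pvalb had HET medians below the WT medians too, and it passed the test in neither. The HET libraries of these regions come from the same mice as those of STR. In PFC it lay between 29.0 and 55.5 cpm in WT (median 36.9) and between 23.5 and 38.9 in HET (median 24.9), and the HOM libraries held 40.8, 31.0, 37.0 and 19.7 cpm (M4393, M4568, M4569 and M4580). In SN it lay between 79.9 and 199 in WT (median 142), between 68.3 and 122 in HET (median 87.2) and between 59.2 and 167 in HOM (median 138). HET medians were below the WT medians with overlap in both regions, and HOM values overlapped the other groups, with the lowest HOM library below every WT and HET library in each region. The log2 fold changes in HET were -0.46 ± 0.15 in PFC (adjusted p = 0.316; 5 of 6 libraries below; 0.000127 to 1 over the alternatives) and -0.61 ± 0.25 in SN (adjusted p = 0.518; 7 of 7 below; 0.00196 to 0.635), and those in HOM were -0.26 ± 0.18 (adjusted p = 0.709; 3 of 4 below) and -0.17. The HOM value in PFC ran from -0.39 without M4393 to -0.09 without M4580, with no call. In SN the 12 oligodendrocyte genes were all below WT in HET (median -0.40; sums of 18526 to 34986 cpm in WT and 17155 to 26240 in HET; Mbp most abundant), in PFC they were too (median -0.44; 4351 to 7567 in WT and 3856 to 4519 in HET), and the part of this in the Pvalb values was not tested.

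In AAV-Cre mice Pvalb did not pass the test in any region. HET and WT medians were 36.4 and 37.7 cpm in PFC, 50.9 and 48.4 in STR and 68.0 and 58.5 in SN, and HOM medians 39.4, 30.0 and 55.3. Ranges overlapped in each region. The lowest log2 fold change was -0.35 ± 0.30 in STR HOM (adjusted p = 1; 5 of 7 libraries below the WT mean; 0.00245 to 1 over the alternatives). Whether the effect of HET on Pvalb in STR differs between the models was tested directly: the difference of Nestin-Cre from AAV-Cre was -1.98 ± 0.55 log2 with an adjusted p of 0.201, the lowest among 60 such marker tests, of which the edgeR quasi-likelihood test called 0. At an unadjusted p under 0.05 there were 7 of the 60 (11.7%), against 11.8% of 89444 tests over all genes, of which 627 (0.701%) were called, 523 of them in PFC HOM. The models also differ in age, Cre and injection. Within Nestin-Cre mice the effect of HET in SN exceeded that in STR by 1.30 ± 0.46 (adjusted p = 0.242, the lowest of 120 marker tests between regions), and that in STR was below that in PFC by -1.43 ± 0.46 (adjusted p = 0.671). Of these 120 tests 0 were called and 15 (12.5%) had an unadjusted p under 0.05, against 6.02% of 185070 tests over all genes, of which 46 (0.0249%) were called. That fit takes no account of regions that come from the same mouse. With mouse as a replicate block, and M4575 left out, the differences of Pvalb were 1.27 ± 0.40 (adjusted p = 0.242) and -1.12 ± 0.42 (adjusted p = 0.777), 0 of the 120 were called and 17 (14.2%) had an unadjusted p under 0.05, against 7.17% over all genes, of which 830 (0.449%) were called, 692 of them in AAV-Cre HOM for SN against PFC. The lowest adjusted p of a marker there was that of Kit in AAV-Cre HET, SN against PFC, at -0.69 ± 0.22 (adjusted p = 0.127), and without the block it was -0.62 ± 0.24 (adjusted p = 0.259).

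**Figure D2:**
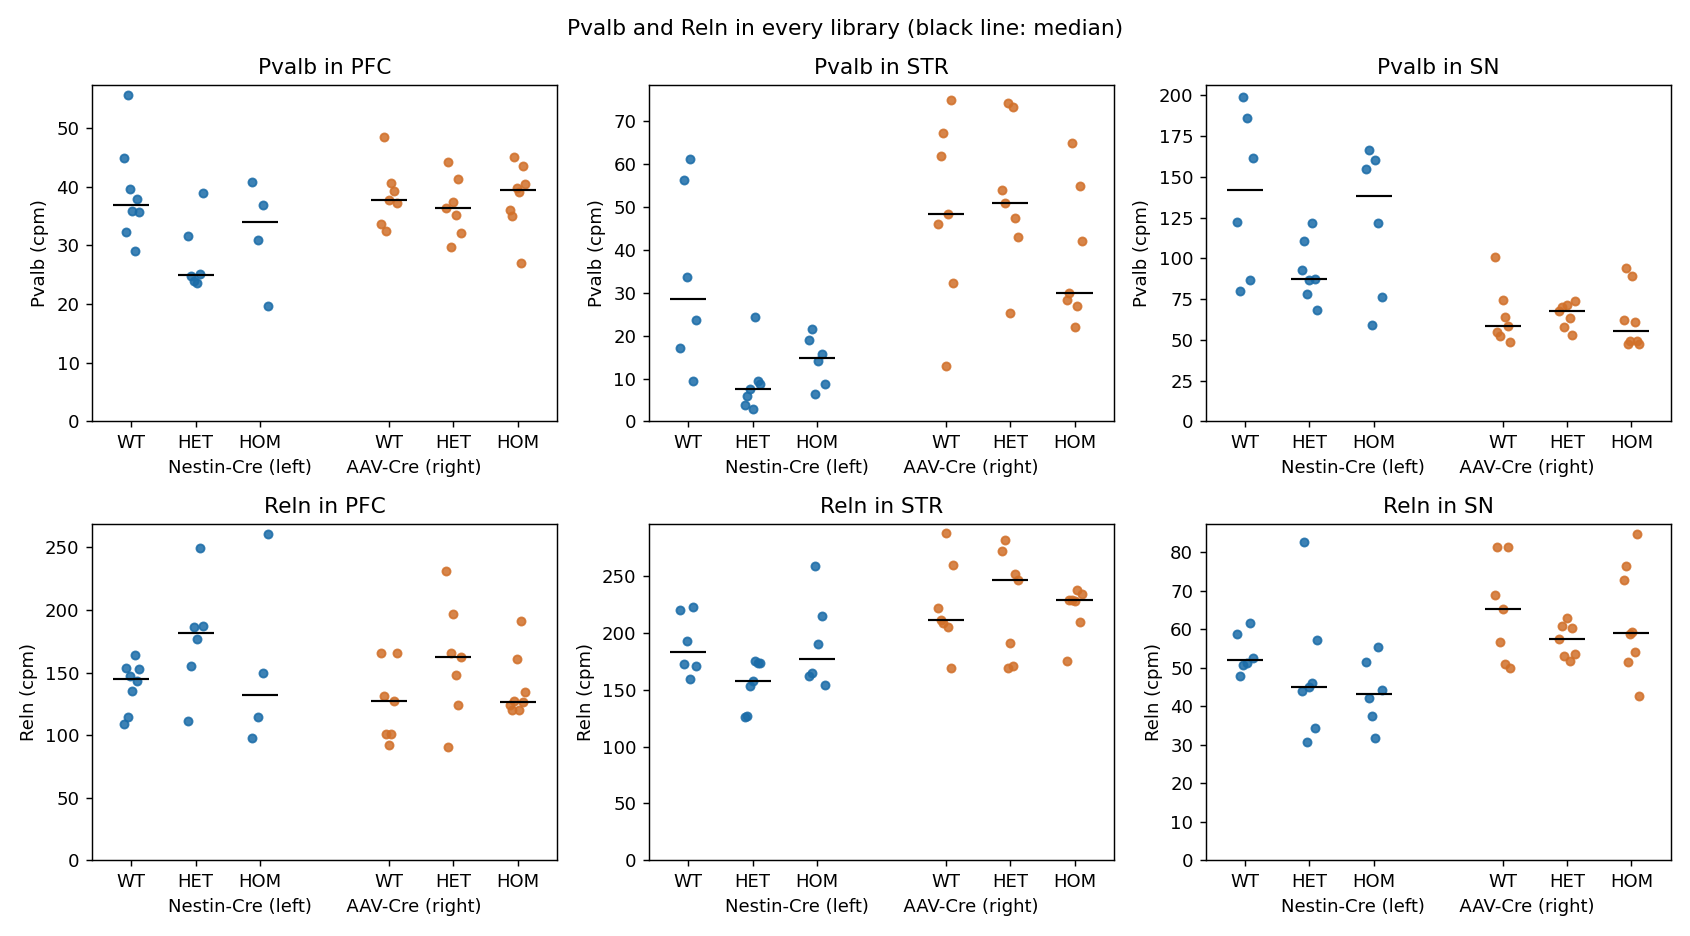
Pvalb and Reln in every library, in cpm on linear axes from 0, by region, model (blue Nestin-Cre, orange AAV-Cre) and genotype; black lines are group medians. In Nestin-Cre STR, 6 of the 7 HET libraries hold 9.40 cpm of Pvalb or less and 1 holds 24.3, while Reln groups overlap in each panel.

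The other medial ganglionic eminence markers overlapped between genotypes in every set. Sst in Nestin-Cre STR had medians of 255, 212 and 210 cpm in WT, HET and HOM, with a HET log2 fold change of -0.21 (adjusted p = 0.380). Npy, which the same striatal cells make, lay between 68.0 and 94.9 cpm in WT (median 81.6), 33.3 and 79.5 in HET (median 57.8) and 40.2 and 120 in HOM (median 56.2). All HET libraries lay below the WT mean, and M4569 in HOM lay above every WT library. The log2 fold change of Npy was -0.50 ± 0.22 in HET (adjusted p = 0.258; 7 of 7 below; 0.00187 to 0.388 over the alternatives) and -0.30 ± 0.23 in HOM. With 1 mouse of Nestin-Cre STR left out, the HOM value of Npy ran from -0.57 without M4569 (adjusted p = 0.574) to -0.20 without M4575, and the HET value from -0.59 to -0.40. Nos1, made by those cells too, had medians of 71.7, 78.2 and 89.9 cpm and log2 fold changes of 0.01 and 0.17 (-0.06 to 0.15 and 0.11 to 0.30 with 1 mouse left out), and Lhx6 had 0.19 and 0.17 (0.12 to 0.23 and 0.05 to 0.23). Sst and Npy were thus below WT and Nos1 above it in HOM, while in HET Nos1 barely differed from WT. Lhx6 is shared with Pvalb cells. None of these differences passed the test.

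In SN, Npy and Lhx6 are low and some groups held 1 library far above the others. Npy lay between 1.83 and 12.4 cpm in AAV-Cre WT (median 4.12), 0.854 and 8.60 in HET (median 2.15) and 1.81 and 5.18 in HOM (median 2.56). The highest WT library, M3587, also held 1138 cpm of striatal projection neuron genes, against 404 to 565 in the other WT libraries. Npy had log2 fold changes of -0.78 ± 0.44 in HET (adjusted p = 0.946; 6 of 7 below; 0.0437 to 1) and -0.78 ± 0.43 in HOM (adjusted p = 0.702; 7 of 8 below; 0.0486 to 0.768). Lhx6 lay between 0.295 and 4.95 cpm in AAV-Cre WT (median 1.27) and between 0.418 and 1.67 in HET (median 1.32), with a log2 fold change of -0.87 ± 0.51 (adjusted p = 0.946; 7 of 7 below the WT mean; 0.116 to 1) though the HET median is not below the WT median, and -0.25 ± 0.48 in HOM. In Nestin-Cre SN HET the library M4566 held 15.5 cpm of Npy and 6.28 cpm of Lhx6, the highest in its group, together with 1844 cpm of striatal projection neuron genes, against 283 to 424 in the other 6. All 10 genes of that list were above WT in this comparison (median 1.28; WT sums 271 to 355 cpm; Adcy5 most abundant), and its part in the Npy and Lhx6 values was not tested.

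Nos1 and Kit in SN varied widely, and neither passed the test. Nos1 lay between 28.2 and 88.8 cpm in Nestin-Cre WT (median 56.3), 52.0 and 128 in HET (median 63.4) and 42.6 and 126 in HOM (median 80.7), and between 71.0 and 148 (median 104), 60.9 and 121 (median 92.3) and 99.7 and 196 (median 134) in AAV-Cre mice. Its highest values are in HOM of the AAV-Cre model, with broad overlap. Log2 fold changes in HOM were 0.56 ± 0.27 in Nestin-Cre (adjusted p = 0.892; 5 of 6 above; 0.0461 to 1) and 0.38 ± 0.15 in AAV-Cre mice (adjusted p = 0.636; 7 of 8 above; 8.51e-05 to 0.729). Kit had log2 fold changes of 0.38 ± 0.26 and 0.37 ± 0.27 in Nestin-Cre HET and HOM, and of -0.57 ± 0.26 (adjusted p = 0.946; 6 of 7 below; 2.95e-07 to 1) and -0.33 ± 0.25 (adjusted p = 0.764; 8 of 8 below; 0.0383 to 0.867) in AAV-Cre HET and HOM. The sign for Kit differed between the models, and the test of that difference gave 0.96 ± 0.38 log2 for HET (adjusted p = 0.313) and 0.70 ± 0.38 for HOM (adjusted p = 0.986). Of the 12 oligodendrocyte genes 12 were below WT in Nestin-Cre SN HET (median -0.40; sums of 17155 to 26240 cpm against 18526 to 34986 in WT) and 12 in HOM (median -0.42; 16307 to 25493), 12 of 12 above in AAV-Cre SN HET (median 0.14; 16081 to 23315 against 13698 to 21073) and 11 of 12 above in AAV-Cre SN HOM (median 0.05; 15266 to 22899), where Nos1 and Kit had opposite signs. Mbp was the most abundant. Other lists varied with Nos1 and Kit in SN as well, as given with the correlations, and the part of these lists was not tested.

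In PFC of Nestin-Cre mice Kit had narrow groups, between 49.8 and 60.0 cpm in WT (median 55.8), between 55.2 and 63.2 in HET (median 60.6) and 56.7, 63.2, 67.0 and 63.4 in the HOM mice M4393, M4568, M4569 and M4580. Of the 4 HOM libraries 3 lay above every WT library. Kit had a log2 fold change of 0.12 ± 0.05 in HET (adjusted p = 0.483; 5 of 6 above; 0.328 to 1) and 0.20 ± 0.06 in HOM (adjusted p = 0.220; 4 of 4 above; 0.0995 to 1, the lowest from DESeq2). Leaving out each HOM mouse in turn gave 0.17 to 0.25, with no call.

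Vip in Nestin-Cre PFC lay between 41.9 and 66.2 cpm in WT (median 57.9) and between 46.7 and 64.3 in HET (median 59.7), and the HOM libraries held 77.4, 56.9, 69.6 and 70.4 cpm in the same mouse order. Of the 4 HOM libraries 3 exceeded the WT range and M4568 lay inside it. The log2 fold change in HOM was 0.31 ± 0.10 (adjusted p = 0.271; 4 of 4 above the WT mean; 0.0531 to 1), and 0.25 to 0.39 with each HOM mouse left out. In STR, where Vip is near the filter, its log2 fold changes in Nestin-Cre mice were -0.56 ± 0.57 and 0.21 ± 0.58, and the HET value ran from -0.89 without M4606 to -0.33 without M4609. The same libraries of PFC had all 12 oligodendrocyte genes below WT in HOM (median -0.44; sums of 3127 to 5231 cpm), among them Gjb1 with a log2 of -0.71 (adjusted p = 0.00677), the 1 gene of all lists called with genotype, and all 10 striatal projection neuron genes below (median -0.61; 447 to 759 cpm against 671 to 1290 in WT; Adcy5 most abundant). By the correlations described further on, the oligodendrocyte and striatal lists gave r of -0.16 and -0.06 with Kit across PFC libraries. With Vip they gave -0.15 and -0.34. The microglia list gave -0.58 with Kit and -0.07 with Vip. Further lists were as close or closer. The partners of Kit and Nos1 gave 0.63 with Kit and 0.44 with Vip, and the reelin pathway 0.63 and 0.24. The forebrain GABA lineage transcription factors gave -0.11 with Kit and -0.46 with Vip. The part of these lists in the Vip and Kit values was not tested.

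Cck in STR followed the cortical genes. In Nestin-Cre STR it lay between 8.21 and 78.4 cpm in WT (median 24.5), 4.55 and 25.7 in HET (median 11.4) and 5.98 and 135 in HOM (median 21.6). The library with 135 cpm, M4569, also held 601 cpm of the cortical excitatory neuron genes and 9.55 cpm of Vip, the highest of each in Nestin-Cre STR. Cck had a log2 fold change of -1.17 ± 0.62 in HET (adjusted p = 0.331; 7 of 7 below; 1.68e-13 to 0.373) and 0.26 ± 0.63 in HOM. The HET value ran from -1.39 without HET mouse M4577 to -0.66 without WT mouse M4326, with no call. Without M4569 the HOM values turned to -0.82 for Cck (adjusted p = 0.575) and -0.74 for Vip (adjusted p = 0.575). In AAV-Cre STR Cck lay between 4.08 and 14.1 cpm in WT (median 8.26), 5.40 and 16.5 in HET (median 9.34) and 8.02 and 21.8 in HOM (median 15.7). The HOM values overlap WT, with a log2 fold change of 0.80 ± 0.28 (adjusted p = 1; 6 of 7 above; 1.71e-05 to 1). Of the 8 cortical excitatory neuron genes tested in that comparison 7 were above WT (median 0.51; sums of 54.6 to 111 cpm in WT and 67.7 to 216 in HOM; Slc17a7 most abundant), and their part in Cck was not tested.

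Reln and Calb2 varied together in PFC. Reln in Nestin-Cre PFC lay between 109 and 164 cpm in WT (median 145) and between 111 and 249 in HET (median 181), and the HOM libraries held 97.5, 114, 149 and 260 cpm for M4393, M4568, M4569 and M4580. In AAV-Cre PFC it lay between 92.2 and 166 in WT (median 127), 90.3 and 231 in HET (median 162) and 120 and 191 in HOM (median 127). In both models 5 HET libraries exceeded the WT median while the lowest HET library lay close to the lowest WT library, and the HOM libraries overlapped WT. The log2 fold changes were 0.36 ± 0.18 (adjusted p = 0.554; 5 of 6 above; 0.000296 to 1) and 0.17 ± 0.21 (adjusted p = 0.864; 2 of 4 above) in Nestin-Cre HET and HOM, and 0.33 ± 0.17 (adjusted p = 0.412; 5 of 7 above; 0.00983 to 0.557) and 0.11 in AAV-Cre HET and HOM. Without M4580 the sign in Nestin-Cre HOM turned to -0.20 (adjusted p = 0.688), and without each of the other 3 HOM mice it was 0.19 to 0.34.

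Calb2 in the same libraries lay between 16.4 and 94.4 cpm in Nestin-Cre WT (median 48.9) and between 47.7 and 94.1 in HET (median 66.6), and the HOM libraries held 20.3, 33.7, 22.0 and 115 cpm in the same mouse order. In AAV-Cre PFC the medians were 23.9, 52.0 and 25.9 cpm in WT, HET and HOM. M4580, the HOM mouse with the most Reln, also had the most Calb2. The log2 fold changes were 0.30 ± 0.37 (adjusted p = 0.844; 4 of 6 above; 0.0160 to 1) and -0.18 ± 0.43 in Nestin-Cre HET and HOM (-1.10 without M4580, adjusted p = 0.261, and -0.05 to 0.06 without each of the others), and 0.44 ± 0.47 (adjusted p = 0.713; 4 of 7 above; 0.000513 to 0.890) in AAV-Cre HET. Of 7 olfactory bulb genes tested 6 were above WT in each HET comparison (median 0.23 for Nestin-Cre and 0.56 for AAV-Cre mice). Their sums ran from 128 to 390 cpm in Nestin-Cre WT and from 191 to 461 in HET, with 130, 188, 167 and 455 in the 4 HOM libraries, and from 157 to 410 in AAV-Cre WT and from 156 to 451 in HET, Cpne4 or Cdhr1 being the most abundant. Their part in Reln and Calb2 was not tested.

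In STR Calb2 lay between 5.22 and 23.9 cpm in Nestin-Cre WT (median 13.7), 6.80 and 39.9 in HET (median 21.2) and 4.55 and 19.6 in HOM (median 9.34). The groups overlap, with HET above and HOM below WT by their medians. Calb2 had a log2 fold change of 0.51 ± 0.42 in HET (adjusted p = 0.514; 5 of 7 above; 0.0452 to 0.554 over the alternatives), opposite in sign to Pvalb, Npy and Cck in the same libraries, and -0.37 ± 0.44 in HOM (4 of 6 below). With 1 mouse left out the HET value ran from 0.25 without HET mouse M4564 to 0.72 without WT mouse M4529, and it was never called. In AAV-Cre STR the medians were 5.49, 9.30 and 12.0 cpm, with log2 fold changes of 0.08 and 0.51 ± 0.31 (adjusted p = 1; 6 of 7 above; 0.132 to 1).

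In STR of Nestin-Cre mice Reln lay between 160 and 223 cpm in WT (median 183), 126 and 176 in HET (median 157) and 154 and 259 in HOM (median 178). All HET libraries were below the WT mean, 3 of the 7 inside the WT range and 4 below it. Reln had a log2 fold change of -0.29 ± 0.12 in HET (adjusted p = 0.257; 7 of 7 below; 0.178 to 0.352 over the alternatives) and 0.02 in HOM. The effect of HET on Reln in STR was below that in PFC by -0.64 ± 0.25 log2 (adjusted p = 0.794). In AAV-Cre STR the medians were 212, 247 and 229 cpm. In SN Reln had log2 fold changes of -0.16 and -0.29 ± 0.18 in Nestin-Cre and of -0.18 in AAV-Cre HET mice, where 7 of 7 libraries lay below the WT mean.

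Across libraries the markers were also compared with each other and with all other genes, as Pearson correlations of log2 cpm within 1 region after the mean of each model and genotype group was removed. The 40 PFC, 40 STR and 41 SN libraries each come from a different mouse within a region, and all mice of both models are pooled, so the values are descriptions. In PFC, Reln was nearest to Gad1 (r = 0.91), Tshz1 (0.89) and Zfp608 (0.88) among 14096 genes. Pvalb was nearest to Vamp1 (0.86), Rassf3 (0.78) and Cpne9 (0.77), 3 genes other than those of Reln. Between markers the highest values were 0.79 for Reln with Calb2 and 0.78 for Sst with Cck, and Pvalb ran against Nos1 (-0.66), Calb2 (-0.59) and Reln (-0.55). The mean log2 level of the olfactory bulb list gave 0.97 with Calb2, 0.81 with Reln and -0.61 with Pvalb. Several other lists were close too. Among them the midbrain dopamine neuron genes gave 0.92 with Calb2 and 0.75 with Reln. The forebrain GABA lineage transcription factors gave 0.87 and 0.75 in this order, and -0.64 with Pvalb. The GABA synthesis and transport genes gave 0.65 and 0.79 with Calb2 and Reln, and the Cajal-Retzius genes other than Calb2 0.78 and 0.72.

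In STR, Pvalb was nearest to Nefh (r = 0.88), Kcnab3 (0.82) and Fndc5 (0.82) among 14108 genes, and Reln to Egr3 (0.80), Thsd7a (0.75) and Anks1b (0.75). Vip with Cck gave 0.77, and both ran with the cortical excitatory list (0.80 and 0.88). Sst with Npy gave 0.60, and Lhx6 with Nos1 and Reln with Kit 0.59 each. Sst and Npy showed no such relation with Nos1 (-0.06 and -0.08) or with Lhx6 (0.08 and -0.05). In SN, Reln was nearest to Caln1 (0.69), Nr3c2 (0.69) and Virma (0.68) among 14290 genes, and Pvalb to Mgst3 (0.80), Prdx5 (0.78) and Smim13 (0.78). Nos1 with Kit gave 0.81, and the oligodendrocyte list ran against both (-0.79 and -0.81). Other lists were close here too, among them the microglia genes (-0.72 and -0.70) and, with the opposite sign, the medial ganglionic eminence classes (0.70 and 0.80).

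**Figure D3:**
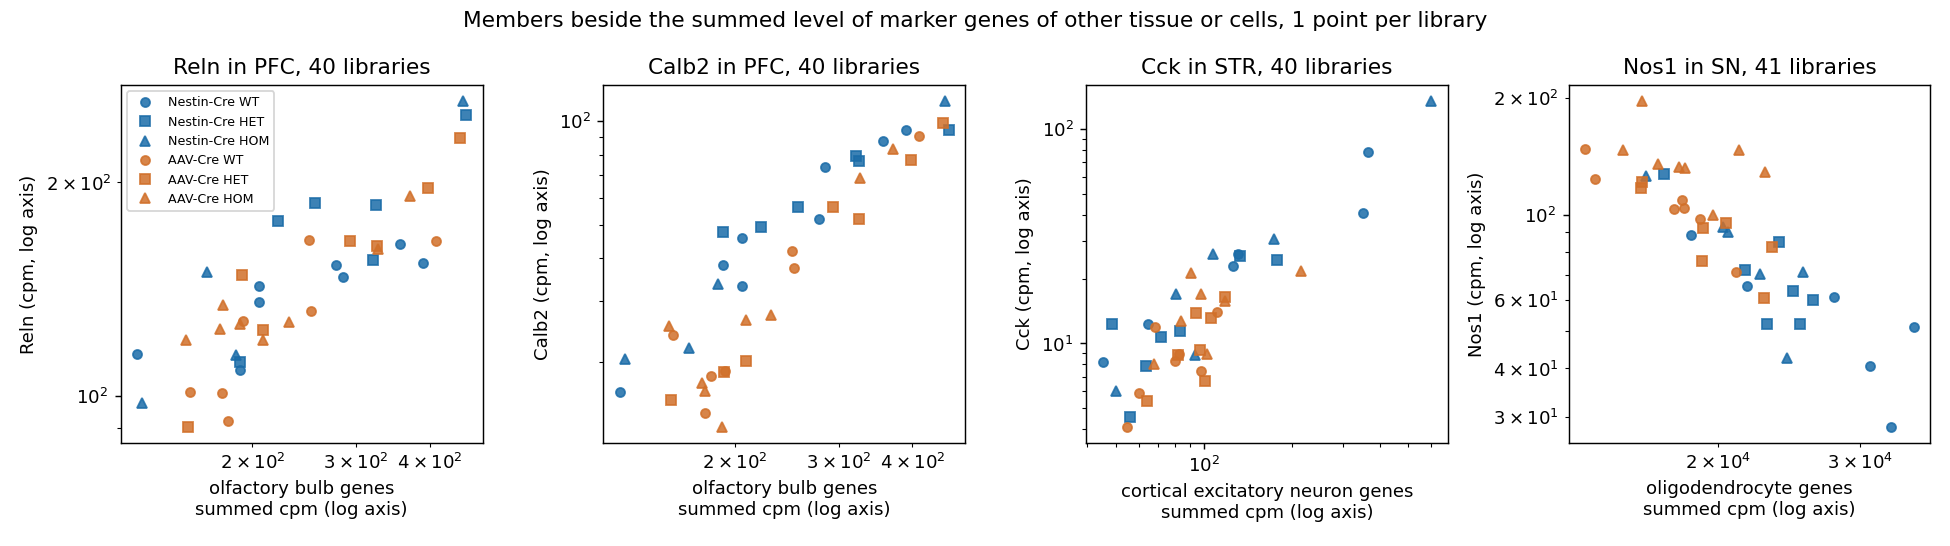
Reln and Calb2 in PFC against the summed level of olfactory bulb genes, Cck in STR against cortical excitatory neuron genes, and Nos1 in SN against oligodendrocyte genes, in cpm on log axes, with 1 point per library, colour for model and shape for genotype. The first 3 panels rise together across all groups and the last falls, with r of 0.81, 0.97, 0.88 and -0.79 for the mean log2 level of each list after group means were removed.

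Other genes of the same cells were counted by list. With genotype, 0 genes were called in any of the 12 comparisons among 4 genes of GABA synthesis and transport, 21 of the medial ganglionic eminence classes, 17 of the caudal ganglionic eminence and neurogliaform classes, 6 striatal cholinergic genes and 21 genes of the reelin pathway. The shares of their tests at an unadjusted p under 0.05 were 6.25%, 4.17%, 7.35%, 20.3% (13 of 64) and 9.13% in this order, against 8.3% over all genes. The cholinergic genes, led by Slc5a7, were all below WT in Nestin-Cre STR HET and HOM (medians of -0.28 in each), with sums of 155 to 182 cpm in WT, 109 to 187 in HET and 125 to 150 in HOM, so that HOM and WT did not overlap. Lists of other cells had larger shares at an unadjusted p under 0.05, among them striatal projection neurons (40.8%), microglia (38.9%) and oligodendrocytes (27.8%), and in the same Nestin-Cre STR libraries 10 of 10 striatal projection neuron genes were below WT in HET (median -0.39) and 8 of 10 in HOM (median -0.17). The part of these in the cholinergic values was not tested. In AAV-Cre STR 4 and 5 of the 6 cholinergic genes were below (medians of -0.03 and -0.08), with sums of 150 to 172 cpm in WT, 146 to 184 in HET and 139 to 160 in HOM. Of the 21 reelin pathway genes, which include the receptors Vldlr and Lrp8 and the adaptor Dab1, 9 were above and 12 below WT in Nestin-Cre PFC HET, with a median of -0.03 beside about 0 for all genes. The 21 genes of the medial ganglionic eminence classes, companions of Pvalb and Sst, had a median of -0.03 in Nestin-Cre STR HET, 10 above and 11 below. At an unadjusted p under 0.05 there were 4 of the 21, against 17.3% of all genes in that comparison.

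The promoters of Sst, Vip and Cck are shown because the cAMP response element is long known from the promoters of Sst and Vip, and Cck varied with Sst in PFC and with Vip in STR. The motif and the genes were thus chosen with matches in view, and the pairs with higher correlations, Nos1 with Kit in SN and Reln with Calb2 in PFC, are not shown. RefSeq promoters of build GRCm38.p6 were found for 9 of the 10 genes, Calb2 having none, and the 120 bases before each gene start were searched on both strands for the cAMP response element TGACGTCA, its shorter core TGACG, which lies within the full element, and the TATA box TATAAA. Of 32851 promoters 407 (1.24%) hold the element, 3829 (11.7%) the core and 2083 (6.34%) the TATA box. Among the 9, Sst holds the element (starting 48 bases before the gene start), Sst, Vip and Cck hold the core, and Vip holds the TATA box. A match is a description of the letters only. The sequences run 5′ to 3′ on the gene's strand, with matches in capitals, at chr16:23890845-23890964 on the minus strand for Sst, chr10:5639098-5639217 on the plus strand for Vip and chr9:121495695-121495814 on the minus strand for Cck.
Sst: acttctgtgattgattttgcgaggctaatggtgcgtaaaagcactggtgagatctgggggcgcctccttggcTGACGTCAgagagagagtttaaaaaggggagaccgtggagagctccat
Vip: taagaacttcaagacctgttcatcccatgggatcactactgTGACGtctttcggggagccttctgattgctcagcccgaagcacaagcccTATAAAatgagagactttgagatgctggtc
Cck: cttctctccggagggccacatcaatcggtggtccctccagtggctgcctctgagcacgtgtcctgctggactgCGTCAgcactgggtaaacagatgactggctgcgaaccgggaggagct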

How the data were processed

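The authors deposited raw read counts per gene and library, and these were used unchanged. By the submitters' processing notes, TruSeq stranded mRNA libraries gave 75-base single-end reads, handled with bcl2fastq 2.20.0.422, STAR 2.5.2b (mm10) and featureCounts 1.5.1. Each model and region was fitted with its 3 genotypes, and regions with all 9 groups of a model, in R 4.3.3 with edgeR 4.0.16 (limma 3.58.1): a filter of 1 cpm in 3 or more libraries, TMM scaling, quasi-likelihood F tests, two-sided, Benjamini-Hochberg adjustment over all genes of a fit, called at an adjusted p under 0.1. Standard errors are those of log2 fold changes, worked back from the test as the absolute log2 fold change divided by the square root of the F statistic. Alternatives were the edgeR likelihood ratio test, DESeq2 1.42.0, RLE size factors, no filter, an adjusted p under 0.05, leaving out M4575 or single mice, 1 fit over the 3 regions and, for regions, mouse as a replicate block. Figures used Python 3.11.15 and matplotlib 3.10.9.

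Libraries of 1 mouse share their animal, so regions are paired. After group means were removed, the median correlation between regions of the same mouse was 0.178 to 0.281, against about -0.01 between different mice. Named genes are the 10 markers and Gdnf everywhere, list genes called with genotype, the most abundant gene of a list, and for Reln and Pvalb the 3 genes with the highest correlation per region. The markers and 23 gene lists (205 genes) were chosen with earlier results of these data known. Motifs were searched in RefSeq promoters.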

Additional observations from a re-analysis of the deposited data

Results flagged for a closer look

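In 180 combinations of marker and group, the highest or lowest library was compared with the rest of its group by the gap to its nearest neighbour relative to the whole range, on log2 cpm (Dixon's criterion), and 5 libraries passed it. Chance gives about 1 in 20 such results, or 9 of 180, more than the 5 found. Reln in AAV-Cre STR HOM was 176 cpm in M3567, below the 210 to 238 of the other 6 libraries. Npy in Nestin-Cre SN HET was 15.5 cpm in M4566, above the 1.85 to 3.47 of the others. Calb2 in AAV-Cre STR HOM was 4.97 cpm in M3687, below the 9.92 to 14.0 of the others. Nos1 in AAV-Cre PFC HOM was 71.2 cpm in M3690, below the 91.1 to 103 of the others, and Kit in AAV-Cre SN HOM was 20.3 cpm in M3570, below the 31.3 to 43.9 of the others. The 5 libraries come from 5 different mice.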

How the results depend on the processing

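Of 1120 genotype values of the markers under the alternatives, 1090 kept their direction and side of the threshold or stayed uncalled, 25 became called, 5 moved by more than the replicate spread and 0 reversed while called; 32 uncalled values changed sign. The edgeR likelihood ratio test called 3 markers in Nestin-Cre PFC HET (Reln, Pvalb, Calb2), 1 in Nestin-Cre PFC HOM (Vip), 4 in Nestin-Cre STR HET (Pvalb, Npy and Cck lower, Calb2 higher), 1 in Nestin-Cre STR HOM (Pvalb), 1 in Nestin-Cre SN HET (Pvalb), 1 in Nestin-Cre SN HOM (Nos1), 2 in AAV-Cre PFC HET (Reln, Calb2), 2 in AAV-Cre STR HOM (Pvalb, Cck), 2 in AAV-Cre SN HET (Npy, Kit) and 3 in AAV-Cre SN HOM (Npy, Nos1, Kit), against 0 with the quasi-likelihood test. As run here, that test gave every gene the spread typical of genes at its level. It used no spread of the gene's own, which the quasi-likelihood test adds, so genes noisier than is typical can get very low p-values. The cause of single calls was not tested. DESeq2 called 1 in Nestin-Cre PFC HOM (Kit) and 1 in Nestin-Cre STR HET (Pvalb), and gave no adjusted p for 7 of the 10 markers in AAV-Cre PFC HOM. In a check on counts drawn with known fold changes, DESeq2 called too readily at these group sizes. A fit of all 3 regions together called 1 in Nestin-Cre STR HET (Pvalb). The counts of these alternatives have no share over all genes beside them, so they are not a result about the markers as a set. Leaving out each mouse of Nestin-Cre STR, chosen after seeing the data, gave 0 to 1 called markers in HET. RLE factors, no filter, an adjusted p under 0.05, leaving out M4575 and dropping the 4 HOM mice of Nestin-Cre PFC one by one called 0 markers.

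Of 330 regional values 320 kept their call, 8 became called and 2 lost it. With mouse as a replicate block to respect the pairing, the regional counts were 6, 10 and 8 for the Nestin-Cre model and 6, 8 and 9 for the AAV-Cre model. The shares over all genes given with the regions are from the fit without the block, so these counts say little about the markers as a set. Other scalings moved the median of all genes by at most 0.0341 log2. Depth limits Vip in STR and Lhx6 and Npy in SN, where WT libraries hold down to 5 counts of Vip and of Lhx6. Group sizes of 4 to 8 and 1 mouse with conflicting labels limit the genotype comparisons, and age, Cre route and injection differ together between the models.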

Other observations

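The partners of these markers were also compared between regions in WT mice. Regions differ in most genes, so the counts say little about the partners as a set. Of 11 receptors for the 4 peptides, 8 were lower and 2 higher in STR than in PFC in each model (median log2 -1.17 and -1.23; 64.4% and 65.5% of all genes called), and 9 and 7 were lower and 1 higher in SN than in PFC (76.6% and 73% of all genes called). The 5 partners of Kit and Nos1, among them the ligand gene Kitl and the guanylyl cyclase subunits that nitric oxide activates, were all lower in SN than in PFC in each model (median -1.61 and -1.12). Of the 21 reelin pathway genes 13 were lower and 5 higher in SN than in PFC of Nestin-Cre mice, and 11 and 9 in AAV-Cre mice. Over all genes 5963 were lower and 5829 higher in the former, and 5885 and 5390 in the latter. In STR against PFC 4816 of all genes were lower and 5110 higher in Nestin-Cre mice, and 4884 and 5226 in AAV-Cre mice. The 6 striatal cholinergic genes were all higher in STR than in PFC (median 4.22 and 2.93). With genotype, 0 receptor or partner genes were called by the edgeR quasi-likelihood test, and 10 of 128 receptor tests (7.81%) and 7 of 60 partner tests (11.7%) had an unadjusted p under 0.05, beside 8.3% over all genes.

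Between regions of the same mouse, after genotype means were removed, Reln in PFC and STR gave r = 0.75 over 15 Nestin-Cre mice and -0.10 over 21 AAV-Cre mice, and Nos1 gave 0.63 and 0.29. Kit in STR and SN gave 0.72 over 21 AAV-Cre mice and 0.03 over 17 Nestin-Cre mice, and Sst in STR and SN -0.03 and 0.59. These pairs were chosen for their high values among 60, which ran from -0.38 to 0.75. These are descriptions over libraries that share their animal, and no difference between the models was tested.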
